A study of Mus musculus with 8 samples.

Results

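The report concerns 10 genes that drive cells into and through mitosis, *Plk1*, *Cdk1*, *Aurka*, *Aurkb*, *Ccnb1*, *Ccnb2*, *Cdc25c*, *Cdc20*, *Ube2c* and *Bub1b*, in the dorsal skin of mice fed collagen hydrolysate. They were selected on measured values: *Plk1* ranked first among all genes in the comparison of the diets, and the others act beside it. The diet differences of these genes are therefore descriptions, and no p-value is given for them. Of the 10 genes, 9 had at least 1 probe set (a group of oligonucleotides on the array that reads 1 transcript) annotated to that gene alone, out of 18193 genes so annotated, and *Ccnb1* had none here and was not analysed. A gene with several probe sets was represented by the one with the highest mean over all arrays, and all 9 lay above a filter that left out the lowest 30% of genes by mean level.

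The samples were 8 pieces of whole dorsal skin from female mice of the hairless strain Hos:HR-1, each measured on 1 array. In the collagen group (n = 4) the mice ate the purified diet AIN-93G mixed with fish-scale collagen hydrolysate, 2.0 g for each 100 g, and in the control group (n = 4) they ate AIN-93G alone. Both groups started the diets at 9 weeks of age, ate them for 12 weeks and were 21 weeks old at sampling. The labels call the arrays biological replicates, and the design text gives 8 mice for each diet, of which 4 each were on the arrays.

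Entry into mitosis is set off by CDK1, a kinase that works only when bound to a cyclin, such as those of the B type. Phosphatases such as CDC25C remove inhibitory phosphates from it. PLK1 and the Aurora kinases then build and correct the spindle, and the checkpoint protein BUBR1, made from *Bub1b*, holds the anaphase-promoting complex back until chromosomes are attached. The activator CDC20 and the ubiquitin-conjugating enzyme UBE2C then let that complex destroy cyclin B. In skin, dividing cells sit mainly in the basal layer of the epidermis, in growing hair follicles and in sebaceous glands.

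Genes of this kind are known to be transcribed late in the cell cycle through a promoter element called the cell cycle genes homology region, with the core letters TTTGAA, often with CCAAT boxes nearby. RefSeq promoter windows (GRCm38.p6, 250 bases before to 50 after the annotated start) were at hand for 8 of the 10 genes. TTTGAA, searched on both strands, was in 7 of the 8 windows and in 17.9% of all 32851 windows, and CCAAT, searched likewise, was in 8 of the 8 and in 37.4% of all. The window without TTTGAA was that of *Ccnb1*. A CCAAT can share a T with a TTTGAA that follows it, and it can overlap its own reverse complement, as at 1 place in the *Ube2c* window. Both motifs were present in 6.95% of all windows.

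The stretches that follow are the 120 bases before the start for the 6 genes in which the 2 diets did not overlap, shown so that the spacing of the motifs can be read, and, where TTTGAA lay after the start, a short site around it. Capitals mark TTTGAA and CCAAT on either strand, so that TTCAAA and ATTGG are the same motifs on the other strand.
Plk1 (chr7:122159315-122159434, plus strand): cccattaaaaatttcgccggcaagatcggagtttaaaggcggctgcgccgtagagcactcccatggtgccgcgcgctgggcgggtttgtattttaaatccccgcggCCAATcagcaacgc
Plk1, site after the start (chr7:122159455-122159480, plus strand): cagcgccgcgTTTGAAttcggggagg
Cdk1 (chr10:69352913-69353032, minus strand): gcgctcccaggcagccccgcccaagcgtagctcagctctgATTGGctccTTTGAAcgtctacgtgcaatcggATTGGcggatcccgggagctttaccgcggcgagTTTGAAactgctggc
Ccnb2 (chr9:70421555-70421674, minus strand): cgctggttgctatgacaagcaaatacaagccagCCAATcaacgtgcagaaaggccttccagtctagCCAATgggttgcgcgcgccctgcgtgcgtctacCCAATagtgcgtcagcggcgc
Ccnb2, site after the start (chr9:70421535-70421560, minus strand): cggcgcggtaTTTGAAtcgcggaccg
Cdc20 (chr4:118437344-118437463, minus strand): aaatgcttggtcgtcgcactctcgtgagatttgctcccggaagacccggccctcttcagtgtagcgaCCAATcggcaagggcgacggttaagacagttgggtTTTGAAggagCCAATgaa
Ube2c (chr2:164769809-164769928, plus strand): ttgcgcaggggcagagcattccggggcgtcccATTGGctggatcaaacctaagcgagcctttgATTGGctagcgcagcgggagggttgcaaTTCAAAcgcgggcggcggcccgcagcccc
Bub1b (chr2:118598091-118598210, plus strand): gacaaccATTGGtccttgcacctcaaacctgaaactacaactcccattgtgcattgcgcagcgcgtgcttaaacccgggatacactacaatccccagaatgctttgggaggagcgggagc
Bub1b, site after the start (chr2:118598241-118598260, plus strand): agacgttaaaTTTGAAactt
*Cdk1*, *Cdc20* and *Ube2c* carried their TTTGAA within 30 bases before the start (starting 15, 18 and 29 bases before it), while *Ccnb2* had it 4, *Plk1* 30 and *Bub1b* 40 bases after the start. *Cdk1* and *Ccnb2* held a further copy, 71 and 167 bases before the start. In *Aurka*, whose window is not printed, it began 32 bases after the start. A match to these letters is a description of the window and not evidence that the element is used.

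On the deposited log2 scale the arrays differed very little from each other, so deviations are given in millionths of a log2 unit from the gene's mean over the 8 arrays. Such a value is not a fold change of RNA. Differences, collagen minus control diet, are given in the same unit with their SE, and also as multiples of the SD of that gene inside the diet groups (pooled over both), written as SD, where 1 SE is 0.71 SD. A lower value in whole skin cannot tell fewer dividing cells apart from less RNA in each.

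All 9 measured genes had a lower mean on the collagen diet, and in 6 of them every collagen-diet array lay below every control-diet array. Over all 12735 genes tested, 2.53% had non-overlapping groups in this direction and 0.777% in the other, and 54.5% had a lower mean. The median difference of the 9 genes was -3.31 SD, against -0.08 SD over all genes tested. Since these genes were chosen by this comparison, their count is not read against that background. With limma 0 of the 12735 genes, which is 0%, passed an adjusted p of 0.05, while 4.15% had an unadjusted p below 0.05 and a lower value and 1.21% an unadjusted p below 0.05 and a higher value.

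**Figure D1:**
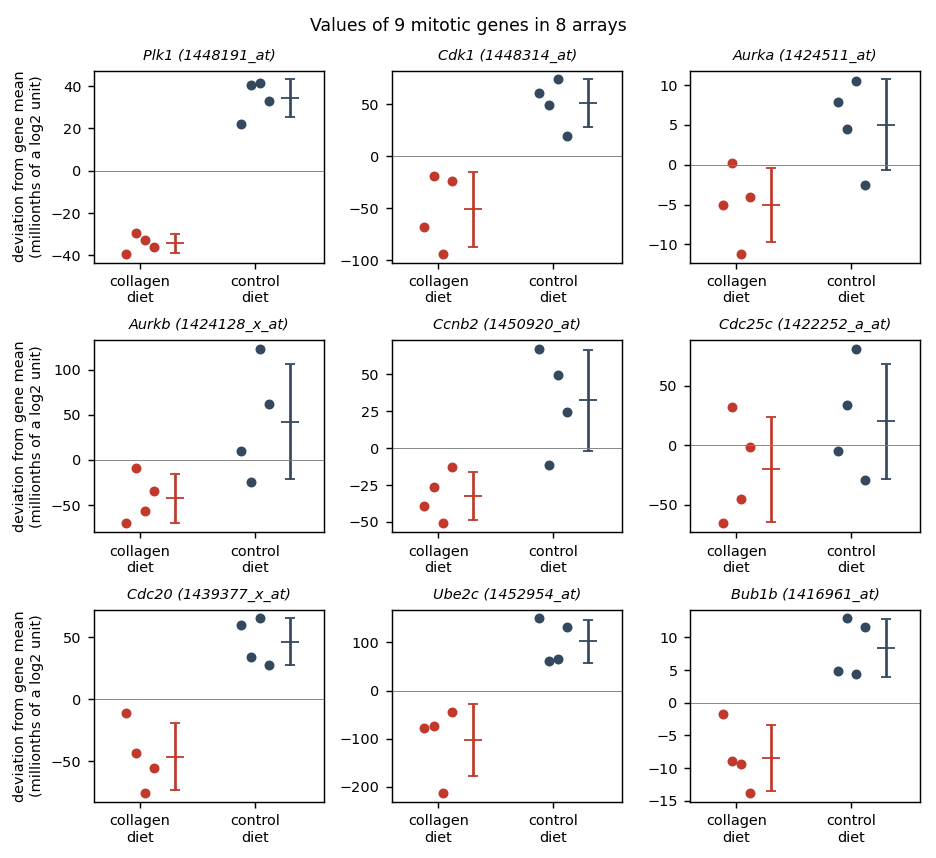
Deviation of each array from the gene's mean over 8 arrays, in millionths of a log2 unit, for the representative probe sets of 9 genes (collagen-diet arrays in red, control-diet arrays in dark grey, bars for the mean and SD of each diet, n = 4). The diets are separate in Plk1, Cdk1, Ccnb2, Cdc20, Ube2c and Bub1b and overlap in Aurka, Aurkb and Cdc25c.

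Among the kinases, *Plk1* (probe set 1448191_at, mean level 7.61 on the log2 scale), which triggers centrosome maturation and spindle assembly, stood apart. Its deviations were -39.3, -29.2, -32.9 and -36.0 millionths in the collagen-diet arrays and 22.3, 40.4, 41.6 and 33.0 millionths in the control-diet arrays. The arrays of each diet lay close together, and the nearest arrays of the 2 diets were 51.5 millionths apart. The difference was -68.7 ± 4.94 millionths (SE, n = 4 per diet), which is -9.83 SD. Its size in SD units comes with a small spread: the pooled SD of *Plk1* was 6.99 millionths, below the lower quartile of 7.60 millionths over all genes tested, where the median was 19.4 millionths. Control replicate 1 was the lowest of its diet, and without it the difference was -16.31 SD. The smallest difference with 1 array left out was -8.96 SD, without collagen replicate 4. After median centring of the arrays the difference of *Plk1* was -0.59 SD, and after quantile normalization it was -0.34 SD, each in the SD of that setting.

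*Cdk1* (1448314_at, mean level 8.66) encodes the kinase that phosphorylates a wide range of proteins at mitotic entry. It deviated by -67.5, -19.1, -93.8 and -23.7 millionths on the collagen diet and by 60.6, 49.7, 74.1 and 19.7 millionths on the control diet. The groups did not overlap, with a gap of 38.8 millionths, although collagen replicates 2 and 4 and control replicate 4 lay near the middle. The difference was -102 ± 21.4 millionths (SE), or -3.38 SD, a larger step on the deposited scale than that of *Plk1* with a wider spread.

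The Aurora kinases overlapped between the diets. *Aurka* (1424511_at, mean level 7.35), which works at centrosomes and spindle poles and activates PLK1, deviated by -5.01, 0.165, -11.2 and -4.11 millionths on the collagen diet and by 7.88, 4.44, 10.5 and -2.60 millionths on the control diet. Control replicate 4 fell among the collagen-diet arrays, and without it the difference was -3.08 SD, against -1.94 SD (-10.1 ± 3.68 millionths, SE) with all arrays. Without control replicate 1 it was -1.66 SD, the smallest with 1 array left out. *Aurkb* (1424128_x_at, mean level 6.94), the kinase that corrects faulty attachments of chromosomes to the spindle, deviated by -70.3, -8.69, -56.9 and -33.9 millionths on the collagen diet and by 9.65, -24.0, 123 and 61.5 millionths on the control diet. Control replicate 2 lay below collagen replicate 2, and the difference was -84.9 ± 34.8 millionths (SE), or -1.73 SD.

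Of the regulators of CDK1, *Ccnb2* (1450920_at, mean level 8.10), a B-type cyclin, barely separated the diets. It deviated by -39.2, -26.3, -51.0 and -13.1 millionths on the collagen diet and by 67.2, -11.7, 49.5 and 24.6 millionths on the control diet. The nearest arrays, collagen replicate 4 and control replicate 2, were 1.36 millionths apart. The difference was -64.8 ± 19.0 millionths (SE), or -2.42 SD, and -4.29 SD without control replicate 2. Its smallest value with 1 array left out was -2.11 SD, without collagen replicate 3 and likewise without control replicate 3. *Cdc25c* (1422252_a_at, mean level 6.98), a phosphatase that activates CDK1, had deviations of -65.8, 32.5, -45.5 and -1.52 millionths on the collagen diet and of -5.03, 33.9, 81.2 and -29.6 millionths on the control diet. The diets were mixed in this gene, and the difference of -40.2 ± 32.8 millionths (SE), or -0.87 SD, was smaller than its spread. Single arrays moved it from -0.50 SD without control replicate 3, and -0.56 SD without collagen replicate 1, to -1.35 SD without collagen replicate 2.

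*Cdc20* and *Ube2c*, which work with the anaphase-promoting complex, did not overlap between the diets. *Cdc20* (1439377_x_at, mean level 8.97), which brings substrates to the complex, deviated by -11.2, -43.4, -75.8 and -55.6 millionths on the collagen diet and by 59.5, 34.1, 65.2 and 27.3 millionths on the control diet. Collagen replicate 1 lay closest to the control-diet arrays, 38.4 millionths below the lowest of them. The difference was -93.0 ± 16.4 millionths (SE), or -4.0 SD. *Ube2c* (1452954_at, mean level 8.40), which supplies the ubiquitin, deviated by -78.4, -72.8, -213 and -45.4 millionths on the collagen diet and by 150, 62.4, 64.8 and 132 millionths on the control diet. The gap between the diets was 108 millionths, and collagen replicate 3 was the lowest array by a wide margin. *Ube2c* had the largest step of the 9 genes on the deposited scale, -205 ± 43.8 millionths (SE), or -3.31 SD.

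*Bub1b* (1416961_at, mean level 7.61), the checkpoint component that restrains CDC20, varied on a small scale. It deviated by -1.65, -8.93, -9.39 and -13.8 millionths on the collagen diet and by 4.82, 12.9, 4.38 and 11.6 millionths on the control diet. The groups did not overlap and were 6.03 millionths apart at the closest. The difference was -16.9 ± 3.36 millionths (SE), or -3.55 SD. The step of this checkpoint gene was thus smaller than those of *Cdc20* and *Ube2c* on the deposited scale and similar to them in SD units.

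The 9 genes have 7 further probe sets between 5 of them, and 6 of the 7 were also lower on the collagen diet. These are other readings of the same arrays and not independent samples. For *Cdc20*, 1416664_at stood at -1.80 SD and 1439394_x_at at -1.20 SD, both with overlapping groups, against -4.0 SD of the representative. For *Aurkb*, 1451246_s_at stood at -2.04 SD and for *Cdc25c*, 1456077_x_at stood at -2.55 SD, both without overlap, although the representative probe sets of these 2 genes overlapped. *Aurka* gave -0.36 SD at 1440129_at. *Bub1b* gave -2.38 SD at 1447363_s_at and 0.24 SD at 1447362_at, and the last was the 1 probe set of the 16 that was higher on the collagen diet. Probe sets whose names end in _x_at or _s_at can, by the maker's convention, also bind related transcripts, and the representatives of *Cdc20* and *Aurkb* are of this kind.

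**Figure D2:**
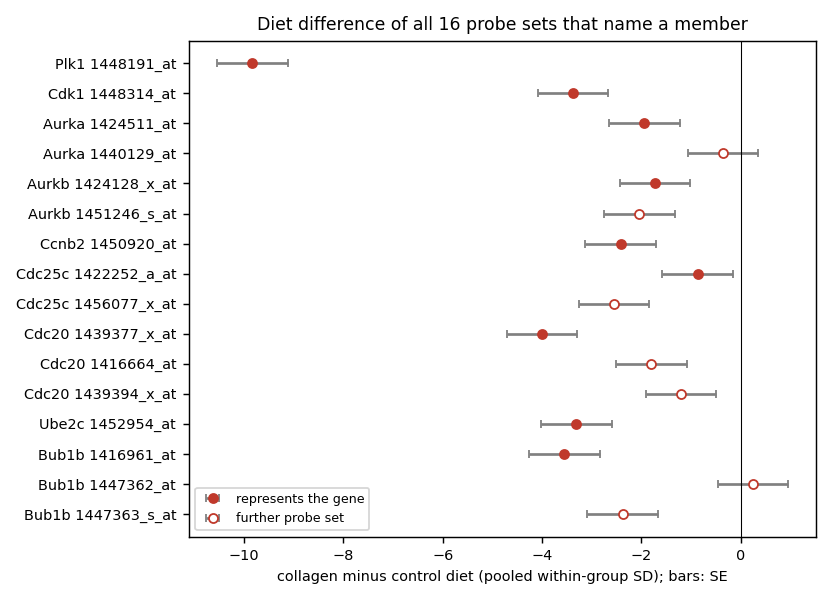
Difference, collagen minus control diet, as a multiple of the pooled within-group SD, with its SE, for all 16 probe sets that name 1 of the 9 genes (filled, the representative; open, a further probe set). Of the 16, 15 lie below 0, and Plk1 at -9.83 SD lies far from the others, which run from -4.0 to 0.24 SD.

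Across arrays, the mean deviation of the 9 genes, each in its own SD units, was -1.69, -1.13, -2.52 and -1.55 in the collagen-diet arrays and 1.70, 1.48, 2.37 and 1.35 in the control-diet arrays. Collagen replicate 3 was the lowest collagen-diet array in 5 of the 9 genes, and collagen replicate 2 the highest in 5. Control replicate 3 was the highest control-diet array in 6 of the 9, and control replicate 4 the lowest in 4. Separation of the diets in these means follows from the choice of the genes.

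Within the diets the genes followed each other only in part. After the mean of each diet was taken off, the Pearson correlation over the 8 arrays was above 0 in 26 of 36 pairs and above 0.5 in 9, with a median of 0.255. The points share their arrays, and each diet contributes only 4, so these values are descriptions. *Cdk1* and *Aurka* were the most alike at 0.90, followed by *Cdk1* and *Cdc25c* at 0.80 and *Aurka* and *Cdc25c* at 0.75. *Ccnb2* and *Bub1b* were the least alike at -0.72, and *Bub1b* had a median of -0.45 with the other 8 genes. *Plk1* had a median of 0.09 with the other 8.

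**Figure D3:**
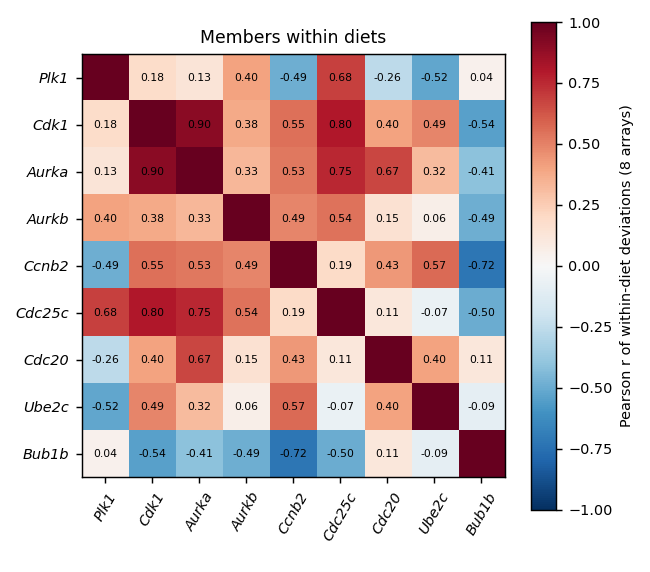
Pearson correlation of within-diet deviations over 8 arrays for each pair of the 9 genes (red above 0, blue below 0). The block of Cdk1, Aurka and Cdc25c holds values of 0.75 to 0.90, and the row of Bub1b is mostly below 0, down to -0.72 with Ccnb2.

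Outside the 9 genes, those with the highest mean correlation to them in these within-diet deviations were *Slc39a3* and *Cpsf6* at 0.50, and *Batf2*, *Ctss* and *Kcns3* at 0.48. Their own diet differences lay between -0.38 and 0.94 SD. Over the values of all 8 arrays, which include the diet difference, the genes most like *Plk1* were *Mettl27* (Pearson r = 0.965), *Gpx4* (0.961), *Grk6* (0.958), *Prss12* (0.957) and *Apoe* (0.957), with diet differences of -4.27, -5.13, -9.63, -4.63 and -5.49 SD. The closest of the other 8 genes were *Cdk1*, *Bub1b* and *Cdc20*, each at 0.89 and at ranks 51, 53 and 54.

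Other genes of the pathway also lay more often on the lower side, and 0 passed the test in either direction. Of 129 such genes tested in 8 lists, 96 had a lower and 33 a higher mean on the collagen diet (54.5% were lower over all genes tested), the median was -0.67 SD, and 18 had an unadjusted p below 0.05 in limma, all lower, where 4.15% of all genes tested were of that kind. In 9 of the 129 the diets did not overlap, all lower, against 2.53% of all genes tested. The lists were drawn up with earlier results of these data known and share some genes, so nothing particular to them is read from these counts.

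Among other regulators of CDK1 activity, 15 of 16 genes had lower values (54.5% over all genes tested) and the median was -0.74 SD. *Ccnf*, a cyclin that serves in a ubiquitin ligase, stood at -2.35 SD (adjusted p = 0.777 in limma), *Cks2*, a small CDK-binding protein, at -2.21 SD (0.813) and *Cdc25a*, the phosphatase that acts earlier than CDC25C, at -1.64 SD (0.965). Of other mitotic kinases and their partners 15 of 20 had lower values and the median was -1.12 SD. Closest to the threshold were *Plk4*, the kinase of centriole duplication, at -3.17 SD (adjusted p = 0.578), *Tpx2*, the activator of Aurora A, at -2.03 SD (0.861) and *Incenp*, the scaffold of Aurora B, at -1.94 SD (0.872), none of them passing.

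In the spindle checkpoint and separase list 12 of 14 genes had lower values, the median was -1.18 SD and 0 genes had separate groups. Over all genes tested 54.5% had a lower mean and 2.53% had separate groups in that direction. *Mad2l1bp*, which helps to silence the checkpoint, differed by -2.08 SD, *Kntc1*, part of the kinetochore RZZ complex, by -1.64 SD and *Trip13*, an ATPase that remodels MAD2, by -1.59 SD, with adjusted p in limma of 0.845, 0.930 and 0.944. Subunits and partners of the anaphase-promoting complex had lower values in 14 of 18 genes and a median of -0.80 SD. *Ube2s*, which extends the ubiquitin chains that UBE2C starts, differed by -2.21 SD, the subunit *Anapc7* by -1.80 SD and the subunit *Anapc15* by -1.63 SD, with adjusted p of 0.831, 0.902 and 0.944. These are the genes of smallest p in the list. *Fzr1* had its largest difference in SD units, -2.74 SD with separate groups.

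Proliferation markers of S phase and chromatin had lower values in 17 of 22 genes (54.5% over all genes tested) and a median of -0.63 SD. Of the 22, 6 were lower at an unadjusted p below 0.05 in limma, where 4.15% of all genes tested were of that kind. *Mki67*, the Ki-67 antigen, stood at -2.17 SD, *Top2a*, topoisomerase II alpha, at -1.97 SD and *Mcm7*, of the replicative helicase, at -1.94 SD (adjusted p = 0.813, 0.872 and 0.872 in limma). The other helicase genes lay closer to no difference: *Mcm2* at -0.44, *Mcm3* at 0.29, *Mcm4* at -0.46, *Mcm5* at -0.68 and *Mcm6* at 0.29 SD. CDK inhibitors and arrest genes also had lower values in 11 of 15 genes, and a median of -0.94 SD. *Cdkn1a*, the inhibitor p21, differed by -2.76 SD with separate groups (adjusted p = 0.668), *Btg2*, an antiproliferative gene, by -1.74 SD (0.914) and *Cdkn3*, a phosphatase that acts on CDKs, by -1.57 SD (0.944).

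Regulators of mitotic gene transcription were split, with 11 lower and 7 higher and a median of -0.12 SD. *Mybl2*, the B-MYB factor of mitotic promoters, stood at -1.91 SD, *E2f2* at -1.57 SD and *Tfdp1*, a partner of E2F factors, at 1.52 SD (adjusted p = 0.872, 0.980 and 0.999 in limma). G1 cyclins and kinases were split as well, with 4 lower and 5 higher and a median of 0.03 SD. *Cdk6* and *Ccnd1*, a kinase and a cyclin of G1, stood at 1.25 and 0.75 SD and *Rb1*, the restraint on E2F factors, at 0.83 SD, each with an adjusted p of 0.999.

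**Figure D4:**
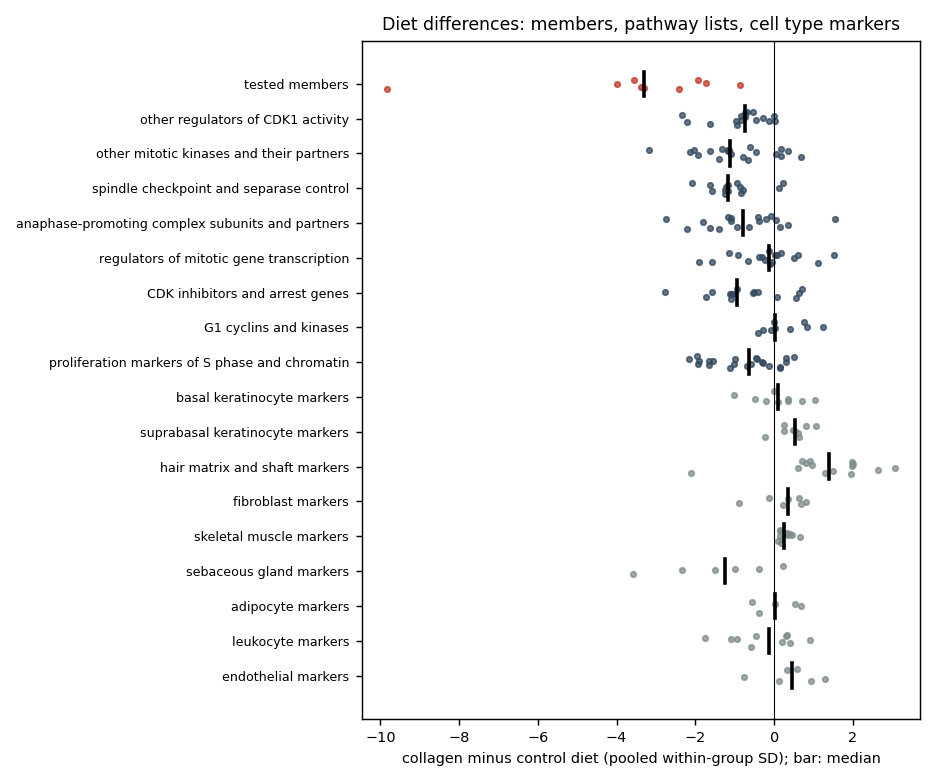
Difference, collagen minus control diet, in pooled within-group SD for each gene of the 9 mitotic genes (red), 8 pathway lists (dark grey) and 9 lists of cell type markers (light grey), with the median as a bar. The mitotic genes have a median of -3.31 SD and the pathway lists run from -1.18 to 0.03 SD. Hair matrix and shaft markers, a list that also holds inner root sheath genes, lie on the other side at 1.39 SD.

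The promoter motifs were counted in the same lists. Of the 106 pathway genes with a window, 24 (22.6%) held TTTGAA and 16 (15.1%) held both motifs. Among all tested genes outside the 10, the 481 with both motifs had a median difference of -0.12 SD with 59.3% lower, and the 5613 with neither had a median of -0.09 SD with 54.9% lower.

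The skin label was checked by its markers. Mean levels were 13.06 for *Krt5* and 13.89 for *Krt14* of the basal layer, 14.07 for *Krt10* and 13.52 for *Lor* of the layers above, and 9.73 for *Col1a1* and 13.17 for *Col3a1* of dermal fibroblasts, on a scale of 5.34 to 14.27. Muscle was present as well, with *Acta1* at 12.73, *Ckm* at 11.11 and *Myh4* at 9.85. Collagen replicate 1 and control replicate 4 stood apart, with muscle marker means of -1.32 and -1.41 SD against 0.23 to 0.85 SD in the other 6 arrays, and they also had the lowest array means. Without both arrays, a setting chosen after seeing the data, all 9 mitotic genes were still lower, with a median of -2.79 SD.

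Of the markers of other cells, 0 genes in any list passed the limma test, and the array means of hair matrix and shaft markers were separate between the diets. They were higher on the collagen diet in 13 of 14 genes (6 higher and 1 lower at an unadjusted p below 0.05), with array means of 0.19 to 1.02 SD on the collagen diet and -1.27 to -0.05 SD on the control diet. This list also holds inner root sheath genes: *Krt71* at 1.28, *Krt25* at 3.07, *Krt27* at 1.97, *Krt73* at 2.64 and *Tchh* at 2.01 SD. Its other genes ran from -2.12 SD in *Hoxc13*, with separate groups, to 1.99 SD in *Krt33b*. Over all genes tested, 1.21% were higher and 4.15% lower at that limma threshold, and 54.5% had a lower mean. Sebaceous gland markers were lower in 5 of 6 (2 lower at an unadjusted p below 0.05), with overlapping array means of -1.02 to -0.29 SD on the collagen diet and -0.45 to 1.58 SD on the control diet. Basal keratinocyte markers were split, with 4 lower and 5 higher, a median of 0.11 SD and array means of -0.50 to 0.58 SD on the collagen diet and -0.61 to 0.58 SD on the control diet. Higher values were found in 12 of 12 skeletal muscle, 8 of 9 suprabasal keratinocyte, 5 of 6 endothelial and 5 of 7 fibroblast markers. Their median differences were small, at 0.25, 0.54, 0.44 and 0.36 SD in that order, where 1 SE for a single gene is 0.71 SD. Adipocyte markers were higher in 3 of 5 and leukocyte markers in 5 of 10. In each of these lists the array means of the diets overlapped. The part of the marked cell types in the values of the mitotic genes was not tested.

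Rescaling the arrays moved the median of the 9 genes more than leaving out any single array did. The median value of an array lay between -220 and 149 millionths from the mean of these medians, and all 9 differences except that of *Ube2c* (-205 millionths) were 102 millionths or less. Inside the collagen diet these medians ran from -211 to 149 millionths, and inside the control diet from -220 to 119 millionths. The SD is taken anew in each setting, so a smaller multiple is not by itself a smaller step on the log2 scale. Centring each array on its median left all 9 genes lower but with a median of -0.59 SD and 0 separate groups, while 86.5% of all genes were then lower. Quantile normalization left 7 of 9 lower with a median of -0.21 SD and 0 separate groups, and *Cdc25c* and *Ube2c* turned to 0.45 and 0.14 SD. By contrast, shifting each array by its median deviation over probe sets, which was 1.33 millionths at most in size, gave 9 of 9 lower and a median of -3.30 SD. After that shift 5 genes had separate groups, in place of 6. As deposited, a typical (median) probe set had an SD of 8.66e-06 log2 units among the 8 arrays. Centring took off array medians that ran from -220 to 149 millionths, while the median deviation of an array was 1.33 millionths at most in size. The share of all genes with a lower mean was 54.5% as deposited and 86.5% after centring. No source used here names the summarization behind the values, and which scaling suits them was not tested.

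**Figure D5:**
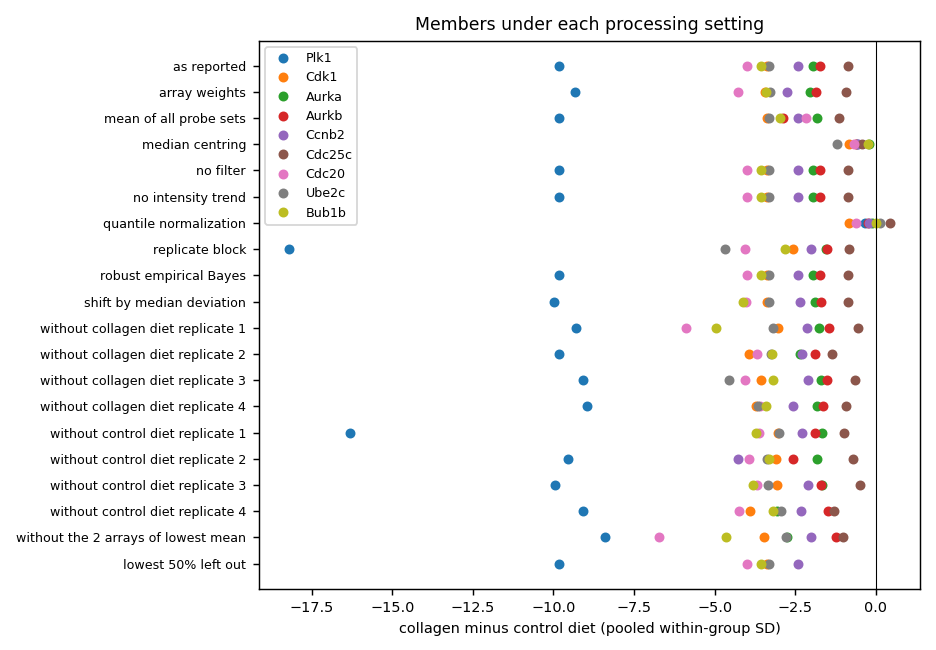
Difference, collagen minus control diet, in pooled within-group SD for the 9 genes (colours) under each processing setting (1 row each). The genes stay below 0 in every setting shown except quantile normalization, where Cdc25c and Ube2c are above 0. After median centring the multiples lie closer to 0, each in the SD of that setting. With the lowest 50% of genes left out, 6 of the 9 are in the table.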

How the data were processed

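Dorsal skin RNA of 8 mice was measured on oligonucleotide arrays, 1 column of values per array, and samples were grouped by their titles. The deposited values are read as log2 expression from their range of 5.34 to 14.27. Per the submitters' processing notes R 2.7.2 was used. The summarization and scaling that the authors applied are named in no source used here. The table holds no background signal, and the error of each value comes from 4 arrays per diet.

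Of 45101 probe sets 64 controls were set aside. By the platform annotation 34945 name 1 gene, 932 several and 9160 none here. Only the first kind was used, with the probe set of highest mean for each gene. Diets were compared over 12735 genes (lowest 30% left out) by a two-sided moderated test in limma 3.58.1 under R 4.3.3 (eBayes with trend, Benjamini-Hochberg adjustment, threshold 0.05), tested on simulated data. p-values are printed for pathway genes only.

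The mitotic genes and all lists were chosen with earlier results of these data known. Named beside the mitotic genes are the 3 genes of smallest p in each pathway list, the 5 genes most alike by each of 2 measures, and fixed markers of skin and muscle. A few further genes of the lists are named for the size of their difference or to show the rest of a list. The labels give both diets the replicate numbers 1 to 4. Deviations of same-numbered arrays correlated at 0.00, -0.02, 0.18 and -0.07, so the numbers were not treated as pairs.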

Additional observations from a re-analysis of the deposited data

Results flagged for a closer look

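In 32 sets of 4 arrays (16 probe sets on 2 diets), a single array stood far from the other 3 in 2 sets by Dixon's test, which sets the gap to the nearest array against the range of the set. Chance gives about 1 in 20 sets, which is 1.6 here. Both are further probe sets and not the representatives. *Cdc25c* (1456077_x_at) was at -15.6 millionths in collagen replicate 1 (gap over range 0.856), and *Aurkb* (1451246_s_at) was at 98.7 millionths in control replicate 1 (0.834).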

How the results depend on the processing

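The 9 measured genes had a lower mean on the collagen diet in all settings tried in which they were tested, except quantile normalization (7 of 9). Their median, in the SD of each setting, was -0.59 SD after median centring and -0.21 SD after quantile normalization, with 0 genes of separate groups in both. Centring took off array medians of -211 to 149 millionths inside the collagen diet and -220 to 119 millionths inside the control diet. The pooled SD of *Plk1* as deposited was 6.99 millionths. A smaller multiple in these settings is therefore not by itself a smaller step on the log2 scale. The cause was not tested. Under quantile normalization *Cdc25c* and *Ube2c* reversed to 0.45 and 0.14 SD, and *Plk1* stood at -0.34 SD. On the values as deposited, the further *Bub1b* probe set 1447362_at ran against the representative at 0.24 SD. The count of genes passing an adjusted p of 0.05 in limma was 1 in place of 0, with *Plk1* as that gene, when the lowest 50% were left out (fewer genes tested), and after the shift by median deviation, a setting chosen after seeing the data. Leaving out 1 array at a time gave 0 to 1 genes passing, with *Plk1* passing without control replicate 1. As *Plk1* was picked by this same comparison, its passing in these settings is a description and not support. With all arrays 682 genes had an unadjusted p below 0.05. With the replicate block the median of the 9 genes was -2.56 SD, 0 genes passed and *Plk1* stood at -18.21 SD. The labels state no pairing by replicate number, so this is only another fit. With 1 array left out the median lay between -3.42 and -2.99 SD. The lower pathway genes numbered 96 of 129 as reported and 121 after median centring, where most genes were lower. Without signal over background, it cannot be told which of the values are near the detection limit.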
